A study of Mus musculus with 6 samples.

Results

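The aquaporins are membrane channels that let water, and in some members glycerol or ions, cross a cell along its gradient. Their genes were followed here in cochlear sensory epithelia (CSE) of Swiss Webster mice at postnatal day 3 (P3) and at 8 weeks, the adult stage. The 9 genes are Aqp1, Aqp2, Aqp3, Aqp4, Aqp5, Aqp6, Aqp7, Aqp9 and Aqp11, and their members on the array are the 21 probe sets that the array annotation gives to 1 of these genes alone, of 34945 probe sets that name a single gene and 18194 genes so named. Each stage was measured on 3 Affymetrix arrays. Each array held RNA pooled from the CSE of 20 mice, so a stage drew on 60 mice in 3 separate dissections, taken after the otic capsule, modiolus, spiral ligament and stria vascularis had been removed. The CSE holds hair cells and supporting cells, with the epithelial ridges at P3 and the inner sulcus and interdental cells in the adult. A pool of whole epithelium cannot tell fewer cells of a type from less RNA per cell.

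Each aquaporin is a tetramer in which every subunit has its own pore. Aqp1, Aqp2, Aqp4, Aqp5 and Aqp6 belong to the classical branch, which in most members passes water alone. Aqp3, Aqp7 and Aqp9 are aquaglyceroporins, which also pass glycerol, and Aqp11 is a distant member that sits mainly in the endoplasmic reticulum. In the cochlea, Aqp4 is known from supporting cells beside the hair cells, Aqp5 from outer sulcus cells and Aqp1 from fibrocytes outside the sensory epithelium. Water follows ions between the fluids of the cochlea, and mice without Aqp4 hear poorly.

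The deposited values are signal intensities that the authors scaled to a common trimmed mean on each array. The background level of an array was taken as the 90th percentile of 83 probe sets whose genes encode receptors of smell and bitter taste, and a probe set that exceeded this level on 3 or more of the 6 arrays was tested. This level was 34.5, 9.16 and 6.29 on the P3 arrays in order of replicate and 16.3, 9.05 and 8.71 on the adult arrays, with 47.4% to 68.1% of probe sets above it. P3 replicate 1 stands apart, with a 3' to 5' signal ratio of 82.0 for the Gapdh control against 0.707 to 2.07 on the other 5 arrays. Hair cell markers were read in part. Of 10 such genes, 6 were tested, among them Myo7a and Pou4f3, whereas Slc26a5, the motor protein of outer hair cells, had a highest signal of 7.69 and was not tested.

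None of the aquaporins passed the test between P3 and adult CSE. Of the 21 probe sets, 9 were tested, which cover 6 of the 9 genes, 5 were above background on all 6 arrays and 9 on none. Of the 9 tested, 0 were called at a limma adjusted p under 0.05 with a fold of at least 2, where 7.26% of all 29036 probe sets tested were called. At an unadjusted p under 0.05 the count was 1 of 9, against 23.7% of all probe sets, and this was a probe set of Aqp6. Log2 fold changes (adult minus P3) ran from -0.48 to 2.56. Their median was -0.20, beside 0.04 over all probe sets tested. The 95% interval of the change included 0 for 8 of the 9 and reached past a 2-fold change in at least 1 direction for all 9 of them, so these arrays leave room for a change of that size in each. With array quality weights, which gave P3 replicate 1 a weight of 0.155, 3 of the 9 were called, where 26.2% of all probe sets were.

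**Figure D1:**
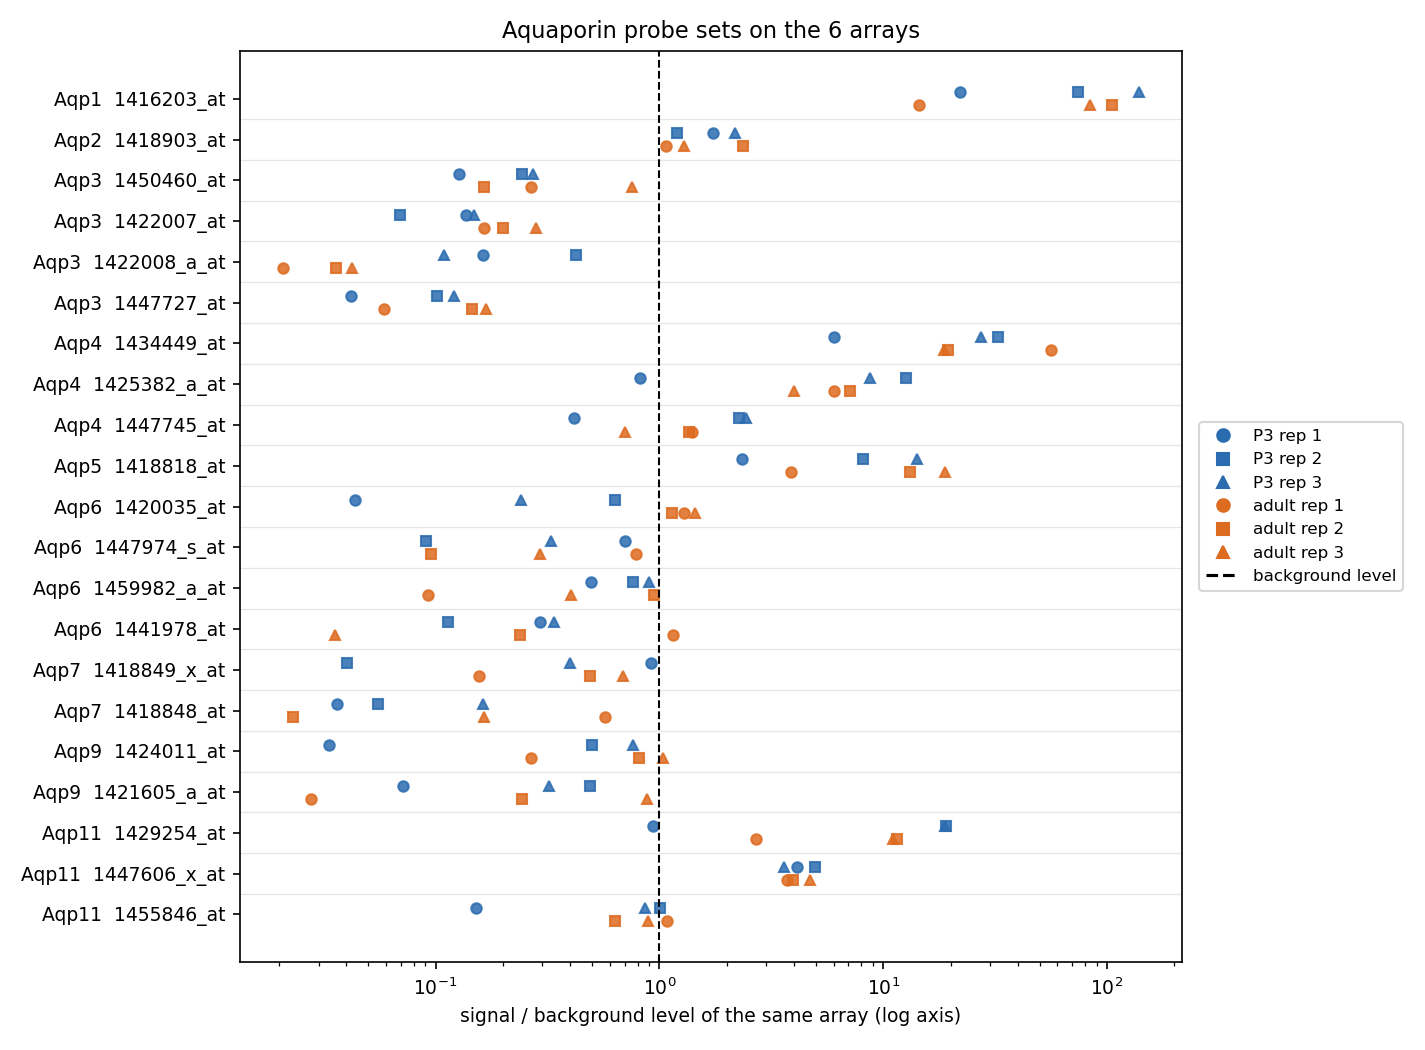
Signal of each of the 21 aquaporin probe sets divided by the background level of the same array (log axis), 1 point per array, blue for P3 and orange for adult, with the marker shape giving the replicate. The points of Aqp1 and Aqp5 lie right of the dashed background line on all 6 arrays, whereas those of Aqp3 and Aqp7 lie left of it on all 6.

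Aqp1, the water channel of red cells, capillaries and many fluid-moving epithelia, was far above background on every array. Its signal was 758, 678 and 873 on P3 replicates 1 to 3 and 235, 957 and 734 on adult replicates 1 to 3. The stages overlapped, and adult replicate 1 was the lowest of the 6 arrays. The mean was 770 ± 97.6 at P3 and 642 ± 370 in the adult (SD, n = 3 arrays). The log2 fold change was -0.48 (SE 0.47, 95% interval -1.56 to 0.59, limma adjusted p = 0.585). Without adult replicate 1 the log2 fold change was 0.13. The interval of Aqp1 reached a 2.94-fold fall and a 1.51-fold rise.

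Strial markers were also lower on that array than on the other adult arrays. Of 8 genes of the stria vascularis, the secretory wall of the cochlear duct that the dissection aimed to remove, 8 were tested and 7 had their lowest adult signal on adult replicate 1. Their summed signal was 2289 to 3348 at P3 and 4206, 9076 and 11744 on adult replicates 1, 2 and 3. Kcne1, a potassium channel subunit of strial marginal cells, had signals of 84.3, 718 and 695 on these adult arrays. Erythroid markers followed another order. Of 8 such genes, the 4 tested summed to 48.5 to 140 at P3 and to 287, 873 and 186 on adult replicates 1, 2 and 3. Globin genes were read in part. Hba-a1, with 1 probe set, was no higher than 9.17, and Hbb-b1 had no probe set that named it alone. The summed signal of 8 endothelial genes was 795 to 1562 at P3 and 673 to 1201 in the adult, lowest on adult replicate 1. Markers of the outer sulcus and spiral ligament were split. Of 6 tested, 4 had their lowest adult signal on adult replicate 1. The other 2, Coch and Otos, had their highest signal of the 6 arrays there, at 12330 and 10678. The part of any of these cells, or of the higher 3' to 5' ratios of adult replicate 1, in the signal of Aqp1 was not tested.

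Aqp4, the main water channel of brain glia and of cochlear supporting cells, has 3 probe sets, all of which were tested. The brightest, 1434449_at, gave 209, 299 and 172 on P3 replicates 1 to 3 and 919, 177 and 164 on adult replicates 1 to 3. Adult replicate 1 was thus the highest of the 6 arrays, while the other adult arrays lay within or just below the range of P3. The means were 227 ± 65.5 at P3 and 420 ± 432 in the adult (SD, n = 3 arrays). Their difference on the log2 scale was 0.44 (SE 0.61, 95% interval -0.95 to 1.83, limma adjusted p = 0.711). Without adult replicate 1 it was -0.37, so the direction at this probe set rested on 1 array.

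The second probe set of Aqp4, 1425382_a_at, whose suffix marks probes shared by several transcripts of a gene, read 28.2, 115 and 54.7 at P3 and 98.2, 64.3 and 34.8 in the adult. It was below background on P3 replicate 1 and above it on the other 5 arrays. Its log2 fold change was 0.10 (SE 0.57, 95% interval -1.21 to 1.41, limma adjusted p = 0.938), or -0.40 with P3 replicate 1 left out and -0.25 with adult replicate 1 left out. The third, 1447745_at, read 14.3, 20.8 and 15.4 at P3 and 22.8, 12.3 and 6.12 in the adult, above background on 4 of the 6 arrays. Its log2 fold change was -0.47 (SE 0.66, 95% interval -1.98 to 1.04, limma adjusted p = 0.714), or 0.01 without adult replicate 3. The 3 probe sets of Aqp4 did not share a direction over all 6 arrays, whereas without adult replicate 1 all 3 were below 0, at -0.37, -0.25 and -0.94 in the order above, and none was called. On adult arrays each of them was highest on adult replicate 1. With array quality weights the second and the third were called lower in the adult, at -1.07 and -1.35 on the log2 scale (limma adjusted p = 0.0360 and 0.0263), whereas the first was at -0.35 and was not called. In that run most of the adult weight was on adult replicate 3, where the third probe set was below background, at 6.12.

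Oligodendrocyte markers and some astrocyte markers were highest on adult replicate 1, as was the first probe set of Aqp4. Of 7 oligodendrocyte genes 5 were tested, and all 5 were highest on adult replicate 1, with a summed signal of 4174 to 6629 at P3 and of 16571, 4220 and 8574 on adult replicates 1, 2 and 3. Among them Cldn11, which is also on the strial list, was highest there by little, at 1087, 973 and 1084 on these adult arrays. Mobp, a protein of central myelin, read 877, 20.4 and 74.2 on these adult arrays and 0.472 to 1.30 at P3. Of 7 astrocyte genes, 7 were tested and 4 were highest on adult replicate 1, with a summed signal of 3474 to 4120 at P3 and of 2783, 1162 and 1062 in the adult. Most of the P3 sum was Fabp7, a fatty acid binding protein of immature glia, at 2538 to 3074. Gfap, the intermediate filament of astrocytes, read 274, 9.52 and 16.2 on adult replicates 1, 2 and 3 and at most 1.02 at P3, below background on all 3 P3 arrays. Of 10 cochlear supporting cell genes, all tested, 2 were highest of the 6 arrays on adult replicate 1 and 6 had their lowest adult signal there. In this list 2 genes were called higher in the adult and 4 at P3, where 3.39% and 3.87% of all probe sets were. The part of glial or supporting cell RNA, or of the higher 3' to 5' ratios of adult replicate 1, in the signal of Aqp4 was not tested.

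**Figure D2:**
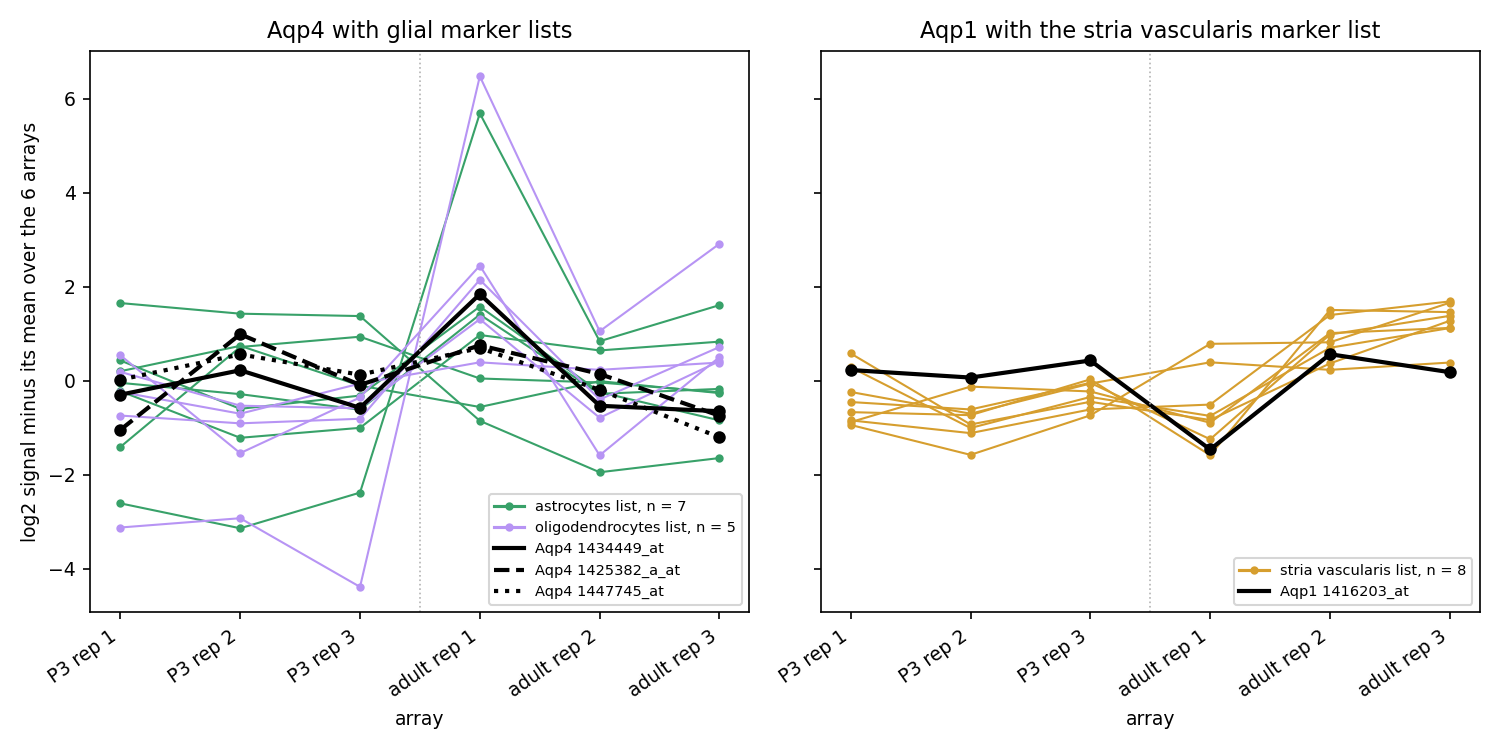
Log2 signal minus its own mean over the 6 arrays, against array, for the Aqp4 probe sets with the tested genes of the astrocyte and oligodendrocyte lists (left) and for Aqp1 with those of the stria vascularis list (right), 1 line per probe set. On adult replicate 1 the solid Aqp4 line is at its highest, as are all 5 oligodendrocyte lines, and the Aqp1 line is at its lowest.

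Aqp5, a water channel of glands, lung and outer sulcus cells, gave 80.9, 74.6 and 89.0 on P3 replicates 1 to 3 and 62.9, 119 and 164 on adult replicates 1 to 3. It was above background on all 6 arrays, by 2.34 to 18.9 times. Adult replicates 2 and 3 lay above the range of P3 and adult replicate 1 below it. The mean was 81.5 ± 7.24 at P3 and 116 ± 50.9 in the adult (SD, n = 3 arrays). Their difference on the log2 scale was 0.40 (SE 0.37, 95% interval -0.45 to 1.24, limma adjusted p = 0.563). With 1 array left out in turn the change of Aqp5 ran from 0.09 to 0.78, and it was 0.78 without both first replicates. With array quality weights it was 0.89 (limma adjusted p = 0.0113), under the 2-fold needed for a call. Slc26a4, an anion exchanger of the outer sulcus, rose in the adult, from 107 to 111 at P3 to 891, 3120 and 1800 on adult replicates 1, 2 and 3. This was a change of 3.97 on the log2 scale with an SE of 0.40 (limma, adjusted p = 0.00168). Of the 6 genes tested from the outer sulcus and spiral ligament list, 3 were called higher in the adult and 0 at P3. Of all probe sets, 3.39% and 3.87% were called in those directions. The 3 not called had changes below 0, at -1.18 for Tbx18 (limma adjusted p = 0.117), -0.36 for Epyc and -0.06 for Car3. Tbx18 read 1553 to 1953 at P3 and 389 to 1173 in the adult. The summed signal of the 6 genes was 14039 to 46991 at P3 and 34532 to 43745 in the adult. The part of these cells in the signal of Aqp5 was not tested.

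Aqp2, the vasopressin-regulated channel of the kidney collecting duct, was above background on all 6 arrays but close to it, at 1.07 to 2.37 times the background level. Its signal was 60.1, 10.9 and 13.7 at P3 and 17.4, 21.5 and 11.3 in the adult. The P3 mean rested on P3 replicate 1, the array with the highest background. The log2 fold change was -0.36 (SE 0.73, 95% interval -2.03 to 1.31, limma adjusted p = 0.806), and 0.40 without that array.

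Aqp6, a channel of kidney intercalated cells that also passes anions, was the single member whose tested stages did not overlap. At the probe set 1420035_at it read 1.502, 5.82 and 1.51 at P3, below background on all 3 arrays, and 20.9, 10.3 and 12.6 in the adult, at 1.14 to 1.44 times background. Stages without overlap were found for 31.1% of all probe sets tested. The log2 fold change was 2.56 (SE 0.97, 95% interval 0.35 to 4.76, limma adjusted p = 0.152), which did not pass the test. Because this probe set entered the test through the adult arrays alone, it had to differ to be tested, and against the background level of the P3 arrays the adult signal was at least 1.11-fold higher. With signals floored at background the change was 0.15, and with array quality weights it was 1.95 and was called (adjusted p = 0.0396). The other 3 probe sets of Aqp6 were above background on at most 1 array, which was adult replicate 1 for 1441978_at at a signal of 18.8. They were not tested, and their signals ran from 0.310 to 24.3.

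**Figure D3:**
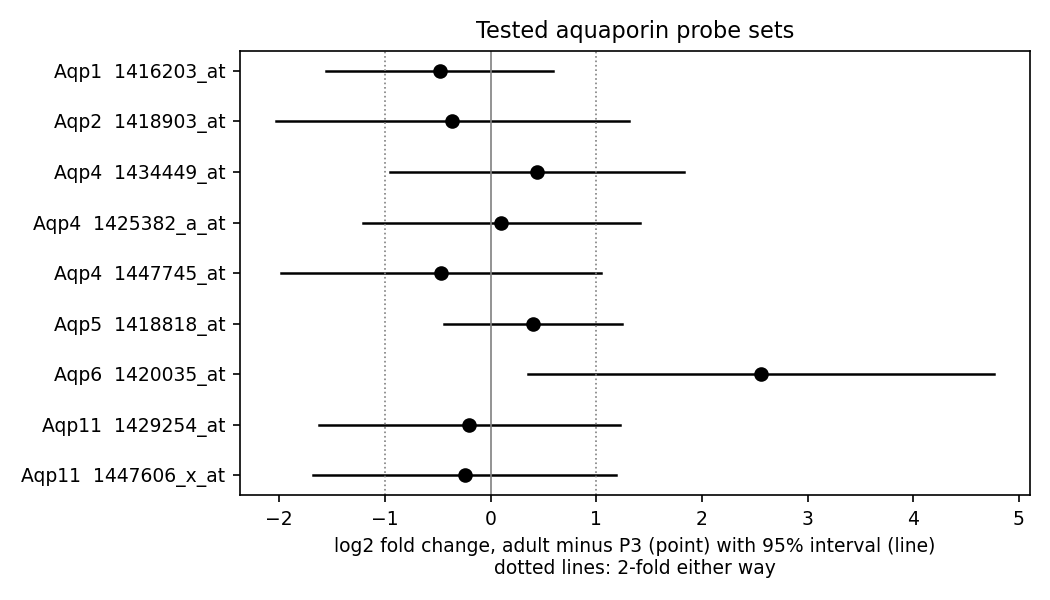
Log2 fold change (adult minus P3) of the 9 tested aquaporin probe sets, with points at the estimate and lines over the 95% interval from limma; dotted lines mark a 2-fold change either way. The interval of Aqp6 alone leaves out 0, and every interval crosses at least 1 of the dotted lines.

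Aqp2, Aqp5 and Aqp6 are next to each other on mouse chromosome 15, with no other protein-coding gene between them in the RefSeq annotation of GRCm38.p6, and their detection differed. Aqp5 was at 2.34 to 18.9 times background and Aqp2 at 1.07 to 2.37 times, while Aqp6 passed background in the adult alone. Their promoter windows are shown because these neighbours also differ in CG dinucleotides, the sites of DNA methylation. Each window runs from 250 bases before to 50 bases after a RefSeq gene start on the plus strand, at chr15:99578806-99579105 for Aqp2, chr15:99590778-99591077 for Aqp5 and chr15:99600950-99601249 for Aqp6. Capitals mark each CG:
Aqp2: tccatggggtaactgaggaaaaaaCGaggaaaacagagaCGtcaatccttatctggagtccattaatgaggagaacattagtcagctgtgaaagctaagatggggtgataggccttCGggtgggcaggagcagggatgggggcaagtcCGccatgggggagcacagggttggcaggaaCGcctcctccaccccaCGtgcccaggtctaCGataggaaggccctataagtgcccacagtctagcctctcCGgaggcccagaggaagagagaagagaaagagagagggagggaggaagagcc
Aqp5: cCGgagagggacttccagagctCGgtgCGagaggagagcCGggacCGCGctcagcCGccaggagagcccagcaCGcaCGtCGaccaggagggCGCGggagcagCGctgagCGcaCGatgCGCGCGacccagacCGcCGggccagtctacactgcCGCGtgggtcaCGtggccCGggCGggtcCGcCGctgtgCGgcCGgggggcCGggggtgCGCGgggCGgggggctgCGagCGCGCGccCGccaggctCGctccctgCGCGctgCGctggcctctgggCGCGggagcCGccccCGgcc
Aqp6: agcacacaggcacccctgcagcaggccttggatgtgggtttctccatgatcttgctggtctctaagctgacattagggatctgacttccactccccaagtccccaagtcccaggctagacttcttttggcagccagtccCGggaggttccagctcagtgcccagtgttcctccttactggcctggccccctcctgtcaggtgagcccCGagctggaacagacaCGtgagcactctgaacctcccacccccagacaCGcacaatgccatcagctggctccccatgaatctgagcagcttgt

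The Aqp5 window held 46 CG, a number reached by 1.65% of the 32851 windows of all genes, where the median was 7. The Aqp2 window held 8, reached by 48.6% of windows, and the Aqp6 window 4, reached by 68.6%. Windows were matched for 8 of the 9 genes, all but Aqp4. Among the others, Aqp11 had 27 CG, Aqp3 had 21 and Aqp1 had 8, whereas both windows of Aqp9 held 1 and 4 and both of Aqp7 held 0 and 3. Aqp3, which was below background on every array, held more CG than Aqp1, which was far above it. Methylation was not measured, and a link between CG number and detection was not tested. The letters TATAA, searched on both strands, were found in 24.9% of all windows and in those of Aqp2, Aqp3 and 1 of the 2 of Aqp9, and not in those of Aqp5, Aqp6, Aqp1, Aqp7 or Aqp11.

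Aqp11, whose loss in mice leads to cystic kidneys, has 3 probe sets, of which 2 were tested. 1429254_at read 32.5, 175 and 119 on P3 replicates 1 to 3 and 43.9, 105 and 96.6 on adult replicates 1 to 3. It was lowest on both first replicates, and on P3 replicate 1 it was below background. The log2 fold change was -0.20 (SE 0.62, 95% interval -1.63 to 1.22, limma adjusted p = 0.878), or 0.30 when P3 replicate 2 was left out, 0.02 when P3 replicate 3 was and 0.20 when adult replicate 1 was. 1447606_x_at, whose suffix marks probes that can bind other sequences as well, was in turn highest on P3 replicate 1. It read 142, 45.5 and 22.8 at P3 and 60.2, 35.6 and 41.0 in the adult, 3.62 to 4.96 times the background of each array. Its log2 fold change was -0.25 (SE 0.63, 95% interval -1.68 to 1.18, limma adjusted p = 0.851), or 0.47 without P3 replicate 1. The third, 1455846_at, was above background on 2 arrays and was not tested. The probe sets of Aqp11 thus ordered the arrays differently, and neither of those tested kept its direction through the leaving out of each array in turn.

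The aquaglyceroporins were not measurable. Aqp3, of skin and kidney epithelia, has 4 probe sets, and each was below background on all 6 arrays, with signals of 0.325 to 6.59. At 1422008_a_at the stages did not overlap (5.66, 3.90 and 0.688 at P3, 0.325 to 0.369 in the adult), but every value was below background, so no fold is given. Aqp7, the glycerol exit channel of fat cells, was below background on all 6 arrays at both of its probe sets, with signals of 0.210 to 31.8, the highest on P3 replicate 1. Aqp9, a channel of liver and white blood cells, passed background on 1 array at 1 of its 2 probe sets, 1424011_at, with 9.04 on adult replicate 3 against a background level of 8.71. The other arrays read 1.15 to 7.34 there, and 0.451 to 7.70 at the second probe set. Of the 9 genes, these 3 had no probe set above background on at least 3 arrays, and a level below background on an array is not an absence of RNA.

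Markers of the cells that these channels are best known from were read as well. Of 10 genes of bone marrow granulocytes, 9 were tested and 8 were called higher in the adult, where 3.39% of all probe sets tested were. Among them, Elane and Prg2 were below background on all 3 P3 arrays. They entered the test through the adult arrays alone, so they had to differ to be tested. The summed signal of the 9 genes was 131 to 416 at P3 and 8148, 17219 and 3857 on adult replicates 1, 2 and 3. The part of granulocytes in the signal of Aqp9 was not tested. Of 6 fat cell genes 1 was tested, Fabp4, at 3.44 to 22.0 at P3 and 10.4 to 88.2 in the adult. Of 6 keratinocyte genes 4 were tested, with a summed signal of 223 to 319 at P3 and 145 to 211 in the adult. Krt1, a keratin of upper skin layers, was the 1 called higher at P3, where 3.87% of all probe sets were. It was below background on all 3 adult arrays, so it entered the test through the P3 arrays alone. Krt14 and Krt15 were not tested.

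Some genes of ion, osmolyte and glycerol handling, which were not tested against the aquaporins as groups, were called. Of 14 channels and cotransporters of cell volume that were tested, 3 were called higher in the adult and 0 at P3, where 3.39% and 3.87% of all probe sets were called in those directions. The median change of the list was 0.46 on the log2 scale. Kcnj16, a subunit of inward rectifier potassium channels, rose from 27.5, 54.5 and 40.3 at P3 to 673, 1023 and 854 in the adult, by 4.42 on the log2 scale with an SE of 0.31 (limma, adjusted p = 0.000499). Slc12a7, the potassium chloride cotransporter KCC4, rose from 238, 229 and 232 to 959, 740 and 1244, by 2.04 (SE 0.24; limma adjusted p = 0.00272). Neither gene's stages overlapped, and both were called under every alternative run. Kcnj10, the partner of Kcnj16 and a neighbour of Aqp4 in glial membranes, rose by 1.85 (SE 0.35, limma adjusted p = 0.0171), a call that ended when P3 replicate 3, adult replicate 2 or adult replicate 3 was left out (adjusted p = 0.0599, 0.0518 and 0.0864), with equal medians (0.108) or without the intensity trend (0.0691). Slc12a2, the cotransporter NKCC1 that loads cells with salt, read 2950 to 5237 at P3 and 3733 to 6901 in the adult and was not called (log2 fold change 0.41, adjusted p = 0.541). Trpv4, an osmosensitive cation channel, read 3.47 to 49.0 at P3 and 34.7 to 90.3 in the adult and was not called either (adjusted p = 0.386).

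Of 5 tested genes of osmolyte uptake and synthesis, 3 were called higher in the adult and 0 at P3, with a median of 1.24. The shares of all probe sets called in those directions were 3.39% and 3.87%. Slc5a3, the sodium myo-inositol cotransporter, rose from 595, 696 and 755 to 2788, 4538 and 5755, by 2.62 on the log2 scale with an SE of 0.31 (limma, adjusted p = 0.00272). Hspa4l, a chaperone induced by osmotic stress in kidney cells, rose from 134, 95.8 and 92.7 to 405, 539 and 516, by 2.19 (SE 0.24, limma adjusted p = 0.00229). Both were called under every alternative run. Slc38a2, a neutral amino acid transporter, rose by 1.24 (adjusted p = 0.0377), a call held without P3 replicate 1 and lost without any 1 of the other 5 arrays (adjusted p = 0.0537 to 0.138), and also with equal medians (0.106) or without the trend (0.100). Nfat5, the transcription factor of the osmotic response, stayed between 194 and 271 on all 6 arrays and was not called (log2 fold change 0.09, adjusted p = 0.842).

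Of 9 tested genes of glycerol handling, the enzymes that make or use the solute of the aquaglyceroporins, 3 were called higher in the adult and 0 at P3, with a median of 0.73. Over all probe sets tested, 3.39% and 3.87% were called in those directions. Gpd1, the cytosolic glycerol phosphate dehydrogenase, rose from 7.69, 11.9 and 16.2 to 91.5, 65.0 and 77.4, by 2.76 with an SE of 0.44 on the log2 scale (limma, adjusted p = 0.00933). Mgll and Pnpla2, which release glycerol or fatty acids from stored fat, rose by 1.397 and 1.33 (adjusted p = 0.0209 and 0.0442). The list had 0 called genes without adult replicate 3, where the adjusted p of Gpd1 was 0.0686 and 1.98% of all probe sets were called. Its count was 2 without P3 replicate 2, P3 replicate 3, adult replicate 1 or adult replicate 2, runs that called 3.15% to 5.76% of all probe sets. It was 1 with equal medians or without the trend, where 1.94% and 3.1% of all probe sets were called and Gpd1 held its call. With array quality weights or without both first replicates, 4 genes were called higher in the adult and 1 at P3. Of all probe sets, these runs called 26.2% and 12.1%. The gene called at P3 was Dgat2, a triglyceride synthase (log2 fold change -1.08 and limma adjusted p = 0.0824 over all arrays). Mgll lost its call without any 1 adult array, while Pnpla2 held its call when P3 replicate 1 or adult replicate 2 was left out and lost it for each of the other 4 arrays (adjusted p = 0.114 to 0.197).

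**Figure D4:**
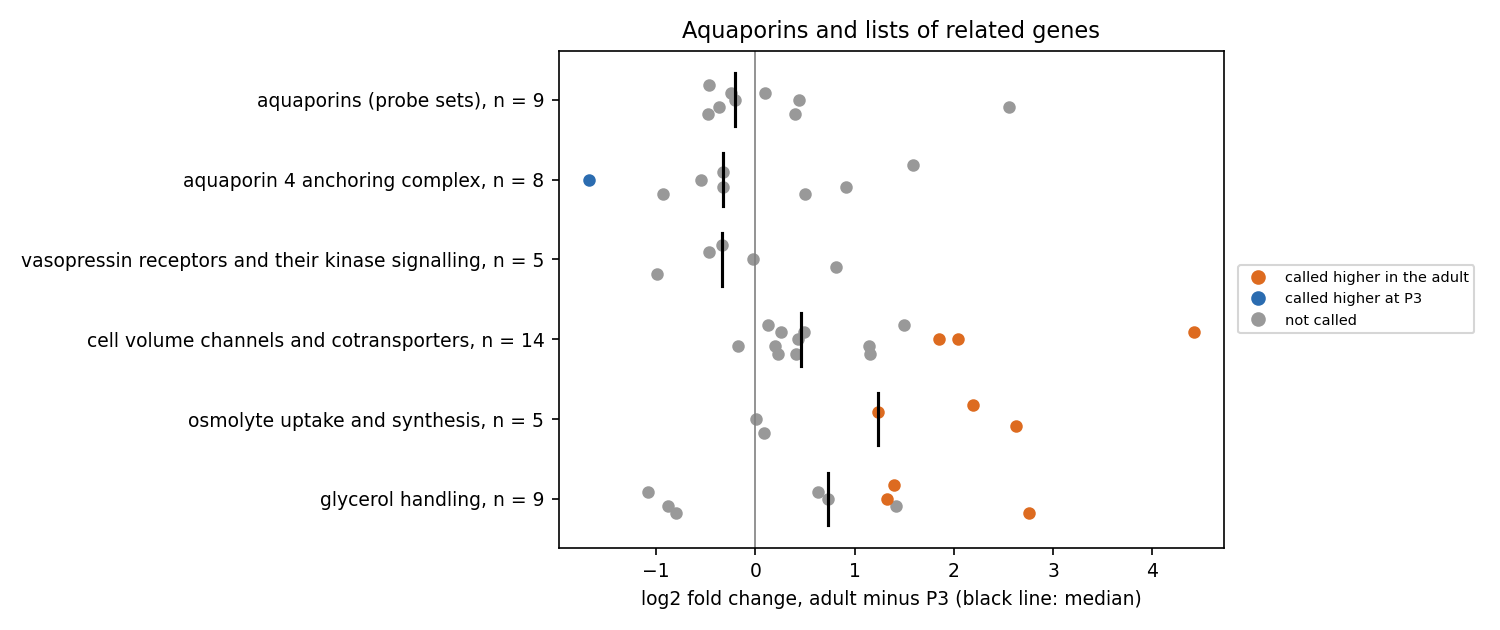
Horizontal axis, log2 fold change from P3 to adult for the 9 tested aquaporin probe sets and for the tested genes of 5 lists of related genes, 1 point per probe set, orange where called higher in the adult, blue where called higher at P3 and grey where not called, with a black line at the median. No aquaporin point is coloured, against 3 orange points each for cell volume, osmolytes and glycerol.

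Partners that hold Aqp4 in place were mostly not called. Of 8 tested genes of the dystrophin complex and its ligand agrin, which anchors Aqp4 at glial endfeet, 1 was called higher at P3 and 0 in the adult. The shares over all probe sets were 3.87% and 3.39%, and the median of the list was -0.32. The gene called was Agrn, the basement membrane proteoglycan agrin. Agrn fell from 1229, 1079 and 1192 to 297, 297 and 551, by 1.67 with an SE of 0.28 on the log2 scale (limma, adjusted p = 0.0112). Its call held for each array left out in turn, but not with equal medians (adjusted p = 0.0801) or without the trend (0.0554). Dmd, the gene of dystrophin, was at -0.93 (adjusted p = 0.138) and was not called. It was called lower in the adult without P3 replicate 1 (-1.25, limma adjusted p = 0.0349) and without both first replicates (-1.49, adjusted p = 0.00431). The same held with array quality weights (-1.38, adjusted p = 0.000151). The list then had 2 genes called higher at P3, where these runs called 9.78%, 12.1% and 26.2% of all probe sets. Utrn, of its homologue utrophin, read 417 to 427 at P3 and 704 to 901 in the adult, 0.91 on the log2 scale (adjusted p = 0.0319), and was not called because the change was under 2-fold. Of the vasopressin receptors and kinases that move Aqp2 to the membrane in kidney, 5 genes were tested and 0 were called. Over all probe sets tested the share called was 7.26%. Avpr2, the kidney vasopressin receptor, was above background on 3 arrays, with signals of 1.77 to 50.3, and Avpr1a and Avpr1b were not tested.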

How the data were processed

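RNA from pooled CSE of P3 and adult mice was measured on 6 Affymetrix Mouse Genome arrays. The authors deposited intensities, the linear signals of MAS5.0, in 1 column per array, scaled so that the mean after trimming 2% of signals at each end is 100.0. Per the labels they used GCOS 1.2, while their methods name another version. Present and absent calls were not used. The array annotation named 1 gene for 34945 probe sets, several for 932 and none for 9160, beside 64 controls. Symbols of list genes were also matched through the Entrez identifier to RefSeq.

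Log2 signals were compared with limma 3.58.1 in R 4.3.3 (stage as the only factor, eBayes with an intensity trend, all 6 arrays) over the 29036 probe sets above background on at least 3 arrays. A probe set was called where its p, adjusted by Benjamini-Hochberg, was under 0.05 and its fold was 2 or more. The SAM test that the authors' methods name was not run. An exact permutation test of 3 against 3 arrays cannot give a p under 0.1. The procedure was tested on simulated data. A list gene was read at its tested probe set of highest mean signal. Every member is reported; of each related list, up to 4 called genes of largest change were to be named, and the uncalled genes named were chosen after their values were seen. Precision is limited by having 3 arrays a stage, and p-values measure the spread between pools.

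The members, the lists and the rule for naming genes were chosen with earlier results of these data known. Alternatives were quantile normalization, equal medians, other signal filters, background floored or added, no trend, a replicate block, array quality weights and each array left out. Leaving out both first replicates was chosen after seeing the data. Promoter windows are RefSeq's, of GRCm38.p6.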

Additional observations from a re-analysis of the deposited data

How the results depend on the processing

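The count of 0 called aquaporin probe sets held in every alternative run except array quality weights, where it was 3. Over 143 log2 fold changes of the 9 probe sets in the alternatives, 125 kept their direction and 18 turned, of which all but 3 did so with arrays left out. These 3 were under array quality weights, at -1.07 and -0.35 for Aqp4 (1425382_a_at and 1434449_at) and 0.21 for Aqp11 (1447606_x_at). The other signal filters, the run without the trend and the replicate block leave the log2 fold change itself as it was, so no direction could turn there. Aqp5 kept its direction in all 16 alternatives, those included. Aqp6 did so in the 15 that gave it a value (it has none where 4 arrays must be above background), but the filter had fixed its direction. With 1 array left out in turn, the log2 fold change ran from -0.88 to 0.13 for Aqp1, from -0.83 to 0.40 for Aqp2, from -0.37 to 0.87, -0.40 to 0.62 and -0.94 to 0.015 for Aqp4 (1434449_at, 1425382_a_at and 1447745_at), and from -0.92 to 0.30 and -0.85 to 0.47 for Aqp11 (1429254_at and 1447606_x_at). Without both first replicates it was 0.12 for Aqp1, 0.35 for Aqp2, -0.41, -0.75 and -1.04 for Aqp4 (1434449_at, 1425382_a_at and 1447745_at) and 0.25 for Aqp11 (1447606_x_at). The cause was not tested.

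Over all probe sets, 2109 were called, against 564 with equal medians, 899 without the trend, 7593 with array quality weights (58.1% of them higher in the adult, against 46.7%), 3527 without both first replicates and 576 to 2839 with 1 array left out. Of the list genes 41 were called, against 26 with equal medians, 64 with array quality weights, 53 without both first replicates and 25 to 45 with 1 array left out. Signals floored at background moved the median of all probe sets from 0.04 to -0.07. Replicate numbers were not used to pair the samples in the main test. Deviations of same-numbered arrays from their stage means correlated weakly, at 0.18, 0.21 and 0.08, which does not decide whether they were paired. With the replicate block 2649 probe sets were called, 9.12% of those tested. Of these, 0 were of aquaporins, 5 of the cell volume list, and 4 higher in the adult and 1 at P3 of the glycerol list. Each P3 array correlated best with the adult array of its own number.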

Other observations

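The aquaporin genes Aqp8, Aqp12 and Mip are also on the array, and 1 of them was tested. Aqp8, a channel of gut and liver, read 82.1, 9.78 and 1.47 on P3 replicates 1 to 3 and 13.7, 21.1 and 13.1 on adult replicates 1 to 3, with a log2 fold change of 0.56 (limma adjusted p = 0.833). Aqp12, of the pancreas, read 2.68 to 6.84 at P3 and 3.44 to 13.9 in the adult. Mip, the channel of lens fibres, stayed at or below 8.74 at both of its probe sets.

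The probe sets nearest in pattern to the brightest ones of Aqp1 and Aqp4 were sought after their values were seen, as the root mean square difference of log2 signals over the 6 arrays after each probe set was centred. Nearest to Aqp1, among 24762 probe sets, were Adgra3, an adhesion receptor, at 0.10, Fgfr2, a fibroblast growth factor receptor, at 0.17 and Hook2 at 0.17, and all 3 were lowest on adult replicate 1. Adgra3 read 203 there and 527 to 720 on the other arrays. Nearest to Aqp4 were Wnt4, a secreted signal, at 0.23, Aldoc, an aldolase of astrocytes and other neural cells, at 0.26 and Ppp1r14a at 0.28, and all 3 were highest on adult replicate 1. Aldoc read 2337 there and 453 to 975 on the other arrays. The 6 arrays share their stages, so these distances are a description of these pools.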
